A study of Mus musculus with 6 samples.

Results

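A set of 10 Notch pathway genes was followed by their symbols in the 6 libraries of the series: the receptor genes Notch1, Notch2 and Notch3, the ligand genes Jag1, Dll1 and Dner, and the target genes Hes1, Hes5, Hey1 and Hey2. They are 10 of the 47643 genes listed in each file, and all 10 had at least 1 count in some library. The libraries were made from ependymal cells, the ciliated lining of the ventricles, taken from the V-SVZ (ventricular-subventricular zone) of adult mice and sorted by GFP 2 days after tamoxifen. There were 3 libraries of the Ccn1 conditional knockout, labelled CKO, in which tamoxifen deleted Ccn1, which encodes a secreted protein of the extracellular matrix, and switched on GFP in ependymal cells. The 3 control libraries, labelled CTR, came from Ctrl mice that had the same tamoxifen, GFP marker and sort. The promoter that drives recombination, the age in weeks and the number of mice behind each sample are not stated in the sources. Nothing in the labels says whether the samples of a group came from separate mice, so p-values measure the spread between these samples. The labels call the molecule total RNA and also describe the samples as cytoplasmic RNA.

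Notch signalling passes between touching cells. A ligand of the Jagged or Delta-like family on one cell binds a Notch receptor on its neighbour, ADAM10 and then gamma-secretase cut the receptor, and its freed intracellular part joins the DNA-binding protein RBPJ and a Mastermind coactivator. Together they switch on genes of the HES and HEY families, which encode repressors of the basic helix-loop-helix class. In the adult V-SVZ the pathway is known for keeping neural stem cells undifferentiated, and ependymal cells are their neighbours at the ventricle surface.

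The letters of the pathway's DNA contact are shown here for the target genes whose counts were 0 in several libraries. RBPJ binds the sequence TGGGAA, which reads TTCCCA on the other strand. RefSeq promoters (GRCm38.p6, 250 bases before to 50 after the annotated start) were found for 8 of the 10 members, and Hes1 and Hey1 are named only. Matches stood in 2 of these 8 genes, Hes5 and Hey2, each with 1 match on either strand, shown in capitals in the promoters at chr4:154960673-154960972 (plus strand) and chr10:30842734-30843033 (minus strand), both written 5′ to 3′ in the direction of the gene.
Hes5: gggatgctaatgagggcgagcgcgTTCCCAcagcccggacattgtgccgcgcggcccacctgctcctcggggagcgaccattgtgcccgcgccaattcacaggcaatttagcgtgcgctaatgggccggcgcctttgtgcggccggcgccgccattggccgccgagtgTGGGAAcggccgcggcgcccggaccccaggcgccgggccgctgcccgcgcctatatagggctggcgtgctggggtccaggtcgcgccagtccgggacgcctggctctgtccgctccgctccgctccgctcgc
Hey2: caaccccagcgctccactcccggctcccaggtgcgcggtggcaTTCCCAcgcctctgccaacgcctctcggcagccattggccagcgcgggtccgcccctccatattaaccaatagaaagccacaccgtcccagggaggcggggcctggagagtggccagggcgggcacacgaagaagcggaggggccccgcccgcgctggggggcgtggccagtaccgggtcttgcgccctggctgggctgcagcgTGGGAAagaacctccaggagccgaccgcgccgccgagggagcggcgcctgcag
Counted from the annotated start, the matches lay at -226 to -221 and -82 to -77 in Hes5, and at -207 to -202 and across the start from -3 to 3 in Hey2. At least 1 match was present in 25.6% of all 32851 promoters of the table, and matches on both strands in 1.81%. A pair of other motifs were searched on both strands in the same windows. The E-box CACGTG, which reads the same on both strands, was in none of the 9 windows of the 8 genes (7.15% of all promoters). The N-box CACNAG, which reads CTNGTG on the other strand and is a site that HES proteins can bind, was in 5 of the 8 genes, beside 42.5% of all promoters. Notch1 had 3 matches, Dner and Notch3 had 2 each, and Notch2 and Dll1 had 1 each. No match overlapped one of another motif, and a match is a description of these letters only.

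The libraries held 13401499 to 15689579 estimated counts. Ccn1, the deleted gene, had 411, 238 and 524 counts in CKO 1 to 3, against 1665, 2037 and 2224 counts in CTR 1 to 3. It stood at 18 ± 6.1 TPM in the CKO and 85.3 ± 18.9 TPM in the CTR libraries (SD, n = 3 each, as for all means given here), and each library went with its label. TPM is a level scaled for transcript length and library size. All 12 ependymal markers were present in each library, with Tmem212 at 5007 to 5597 TPM in the CKO and 5084 to 6259 TPM in the CTR. CTR 1 stood apart on the first principal component (29.2% of the variance) and CTR 3 on the second (21.9%), so values without them are given where a result rests on them. CTR 1 also had the lowest Foxj1, at 3.26 TPM against 12 to 18.8 TPM in the 5 other libraries. The ependymal markers differed in this. CTR 1 was also lowest for Rsph1, Ak7, S100b and Nnat, but highest for Tmem212, Rarres2, Dynlrb2 and Mia, and in between for the rest. Of the 8 endothelial markers, 7 were listed at 0 in all 6 libraries, and the eighth, Flt1, reached 0.0141 TPM. At this depth a gene at 0 counts in a library could still hold up to 0.191 to 0.224 CPM (counts scaled to 1000000 per library), the floor of 3 counts.

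Genotype was compared with the edgeR quasi-likelihood test over 11574 genes, with p-values adjusted by Benjamini-Hochberg over all of them. It called 0 of the 10 Notch genes, and 0% of all genes tested. Ccn1, the deleted gene, was thus not called by edgeR either. Its log2 fold change was -2.22, with an edgeR p of 0.00042 unadjusted and 0.99999 adjusted. DESeq2 did call Ccn1 (adjusted p = 4.1e-06), so 0 calls by edgeR do not show that a gene was unchanged. Of the 9 members that DESeq2 tested it called 0, where it called 0.907% of all genes higher and 0.725% lower in the CKO. Of the 10, 7 passed the filter on low counts and were tested, 4 with a positive and 3 with a negative log2 fold change of the CKO over the CTR, and Dll1, Notch3 and Hey2 did not pass it. The median over the 7 was 0.10, beside 0.0044 over all genes tested. At an unadjusted p of 0.05 edgeR counted 0 of the 7 members, where 2.75% of all genes were past it (1.43% higher and 1.31% lower in the CKO). Limma-voom counted 1 member, Dner, beside 608 of all 11574 genes, and DESeq2 counted Dner too, beside 1071 genes in all. Over 17 settings, fits without 1 library included, Dner was under an unadjusted p of 0.05 in 8. The 3 CKO values lay below the 3 CTR values for 1 member, Dner (4.62% of all genes tested), and above them for 0 members (4.99%). An exact permutation test of 3 against 3 cannot give a p under 0.1. In bulk RNA fewer cells that express a gene and less of its RNA per cell cannot be told apart.

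**Figure D1:**
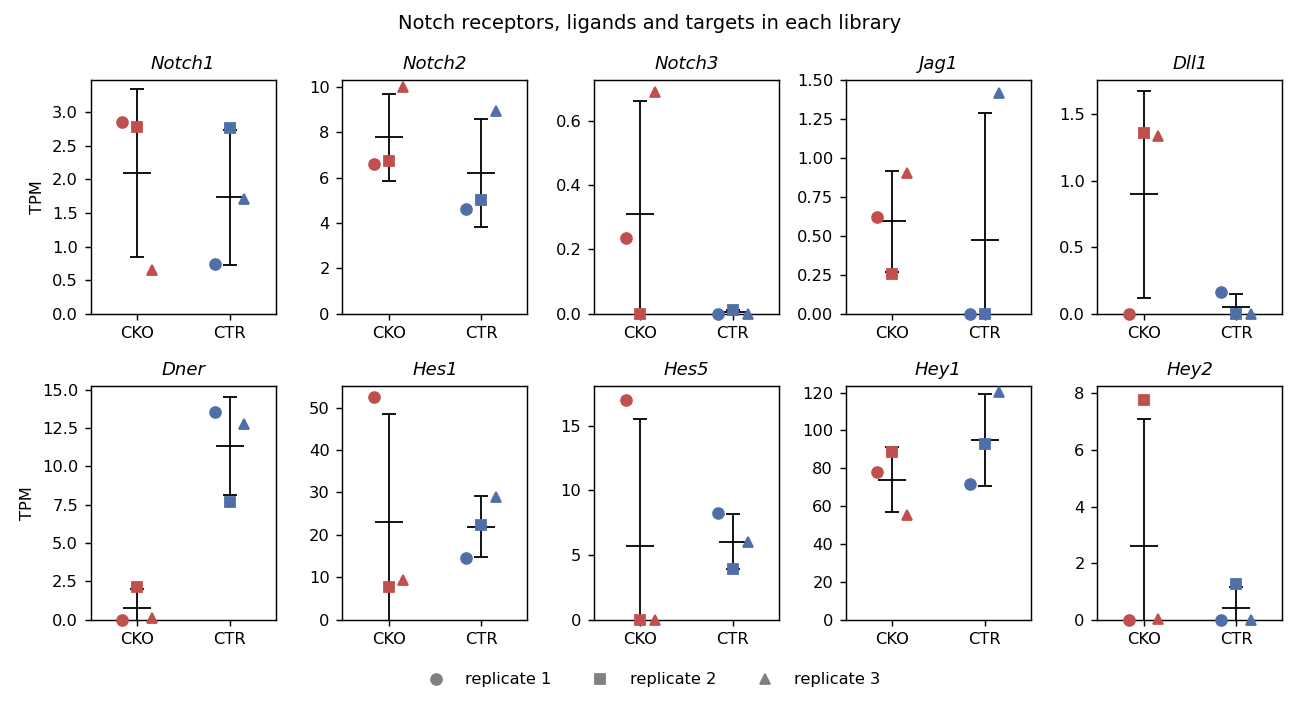
Levels of the 10 Notch genes in each library, in TPM on linear axes that start at 0 and differ between genes, with CKO libraries left in red and CTR libraries right in blue. Symbols mark the replicate number and black bars the mean ± SD of 3 libraries. The Dner groups do not overlap (0 to 2.17 TPM in the CKO and 7.69 to 13.5 TPM in the CTR), and the groups of the other 9 genes do.

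Among the ligands, Dner had 81.2 to 97.3% of the summed TPM of the Jagged and Delta-like genes and Dner in the controls. In CKO 1 to 3 its share was 0, 42.1 and 3.27%. Dner encodes a transmembrane protein of neurons and glia with EGF-like repeats that can act on Notch but lacks the DSL domain of the Jagged and Delta-like ligands. It stood at 0, 2.17 and 0.14 TPM in CKO 1 to 3, against 13.5, 7.69 and 12.7 TPM in CTR 1 to 3. Each control was above each CKO library. In the controls this placed Dner at the 51.4th to 60.4th percentile of the genes detected in that library. The gene (ENSMUSG00000036766.12) lies on the minus strand of chromosome 1, from 84369839 to 84696221 (GRCm38, GENCODE M21). Its estimated counts were 0, 86 and 6 in the CKO and 682, 306 and 583 in the CTR. On the log2 scale the CKO over CTR difference was -3.93 ± 1.82 (SE), and its 95% interval of -8.15 to 0.29 holds 0. The edgeR p was 0.0639 unadjusted and 0.99999 adjusted. DESeq2 gave Dner an unadjusted p of 0.0130 and an adjusted p of 0.288, and no setting fitted to all 6 libraries gave a lower adjusted p. A DESeq2 fit without CKO 2, the CKO library with the most Dner, left 0 and 6 counts in the CKO. Dner was then called lower, where 3.51% of 16251 genes were called, 471 lower and 99 higher. This call depends on which library was left out and is no support for a difference. The fold change kept its sign without each library, at -3.70 without CTR 1 and -3.88 without CTR 3, and CKO 2 held most of the residual signal (-7.25 without it). Of 1313 genes with a mean count within 0.8 to 1.25 times that of Dner, 34.1% also had a library at 3 counts or fewer.

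Markers of other cells are given beside Dner. Of the 8 neuron markers, 3 were listed at 0 in all 6 libraries, and most of the summed level, 291 to 366 TPM in the CKO and 191 to 428 TPM in the CTR, was Ppp1r1b. The 7 other neuron markers summed to 0, 11.6 and 0.94 TPM in CKO 1 to 3 and to 0, 2.35 and 0 TPM in CTR 1 to 3. For the 8 markers of neuroblasts and transit-amplifying cells the sum was 7.07 to 8.77 TPM in the CKO and 9.29 to 26.8 TPM in the CTR. Single markers differed, and the sums rested on different genes. Tubb3 was at 0 in each CKO library and at 12.4, 12.9 and 0 TPM in CTR 1 to 3, and so made up most of the 20.9 TPM of CTR 1. Dcx stood at 6.53 TPM in CTR 1 and at most at 0.0892 TPM in the other libraries. Sox11, the leading gene of the list, stood at 5.16, 4.15 and 4.50 TPM in CKO 1 to 3, against 1.60, 7.13 and 9.28 TPM in CTR 1 to 3. It was nearly all of the 9.29 TPM of CTR 3. Dlx1 stood at 0.12, 2.27 and 2.95 TPM in CKO 1 to 3, against 0, 4.01 and 0 TPM in CTR 1 to 3. Dlx2 was highest in CKO 1, at 3.39 TPM. The part of neurons, transit-amplifying cells and neuroblasts in the Dner values was not tested.

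The canonical ligand genes were low in TPM, and each was at 0 counts in 1 or more libraries. Jag1 (chromosome 2, 137081456 to 137116644, minus strand) encodes a Jagged ligand, and stood at 0.62, 0.25 and 0.90 TPM in CKO 1 to 3, against 0, 0 and 1.42 TPM in CTR 1 to 3. It was present in each CKO library and in 1 control, and that control was the highest of the 6. Its log2 fold change was 0.40 ± 2.40 (SE, edgeR adjusted p = 0.99999), and it was -0.17 without CTR 1. Without CTR 3 no control count was left. At least as many libraries at 3 counts or fewer as for Jag1 were found in 83.1% of 973 genes of like mean count. Dll1 (chromosome 17, 15367354 to 15376872, minus strand), a Delta-like ligand gene that neural progenitors use, had 0, 53 and 56 counts in CKO 1 to 3, against 8, 0 and 0 counts in CTR 1 to 3. That is 0, 1.36 and 1.34 TPM in the CKO and 0.16, 0 and 0 TPM in the CTR, so that CKO 1 was at 0 like CTR 2 and CTR 3. Dll1 was not tested after the filter, and without a filter its edgeR p was 0.283 unadjusted. Of the other ligand genes listed, Dll4, Dlk2 and Cntn6 were at 0 counts in all 6 libraries and Dlk1 had 1 count in 1 of them. Dll3, which was not tested, had 3, 4 and 1 counts in CKO 1 to 3, against 0 counts in each control. Its groups did not overlap, but each library except CKO 2 was at or under the floor of 3 counts. Jag2 stood at 1.5 ± 0.35 TPM in the CKO and 0.67 ± 0.98 TPM in the CTR. Cntn1, which encodes a neural adhesion molecule reported to bind Notch, stood at 4.24 ± 2.15 TPM in the CKO and 2.53 ± 2.47 TPM in the CTR (SD, n = 3 each).

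Notch2 (chromosome 3, 98013527 to 98150361, plus strand) was the leading receptor gene in all 6 libraries. It stood at 6.59, 6.71 and 10.003 TPM in CKO 1 to 3, against 4.63, 5.01 and 8.95 TPM in CTR 1 to 3. The highest library of each group was its replicate 3, and the groups overlapped. Notch2 had a log2 fold change of 0.35 ± 0.40 (SE; 95% interval -0.58 to 1.27). Its edgeR p was 0.412 unadjusted and 0.99999 adjusted. Without CTR 1 the log2 fold change was 0.23, and without CTR 3 it was 0.67. Of the summed TPM of the 4 receptor genes, Notch2 made up 57.5, 52.8 and 88.2% in CKO 1 to 3 and 86.0, 45.0 and 82.5% in CTR 1 to 3.

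Notch1 (chromosome 2, 26457903 to 26516663, minus strand), the receptor gene best known from neural stem cells, was lower than Notch2 in 6 of 6 libraries. It stood at 2.85, 2.78 and 0.65 TPM in CKO 1 to 3, against 0.74, 2.76 and 1.70 TPM in CTR 1 to 3. CKO 3 and CTR 1 were the low libraries, 1 in each group. The log2 fold change was 0.30 ± 1.10 (SE, edgeR adjusted p = 0.99999), and it was -0.034 without CTR 1 and 0.27 without CTR 3. Notch3 (chromosome 17, 32120820 to 32166852, minus strand), a receptor gene known from vascular mural cells, had 23, 0 and 68 counts in CKO 1 to 3, against 0, 1 and 0 counts in CTR 1 to 3. It reached at most 0.69 TPM, in CKO 3, and was absent from CKO 2, so no fold is given. Without a filter its edgeR p was 0.112 unadjusted. The mural marker Pdgfrb was also highest in CKO 3, at 2.09 TPM, where the 5 other libraries had 0.0155 TPM or less. Of the other mural markers, Kcnj8 and Myh11 were listed at 0 in all 6 libraries and Rgs5 had 1 count in CKO 2. Cspg4 was at 0 in CKO 3 and highest in CKO 2, at 0.61 TPM, and Abcc9 had at most 3 counts, in CKO 3. The 8 mural genes summed to 512, 462 and 458 TPM in CKO 1 to 3, with CKO 3 the lowest of them, and to 323 to 522 TPM in the CTR, most of it Acta2. The part of mural cells in the Notch3 counts was not tested. Notch4, known from endothelial cells, stood at 1.78, 3.21 and 0 TPM in CKO 1 to 3 and at 0.0106, 3.35 and 0.197 TPM in CTR 1 to 3. The 4 receptor genes summed to 11.5, 12.7 and 11.3 TPM in the CKO and 5.38, 11.1 and 10.9 TPM in the CTR, with CTR 1 the low library.

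**Figure D2:**
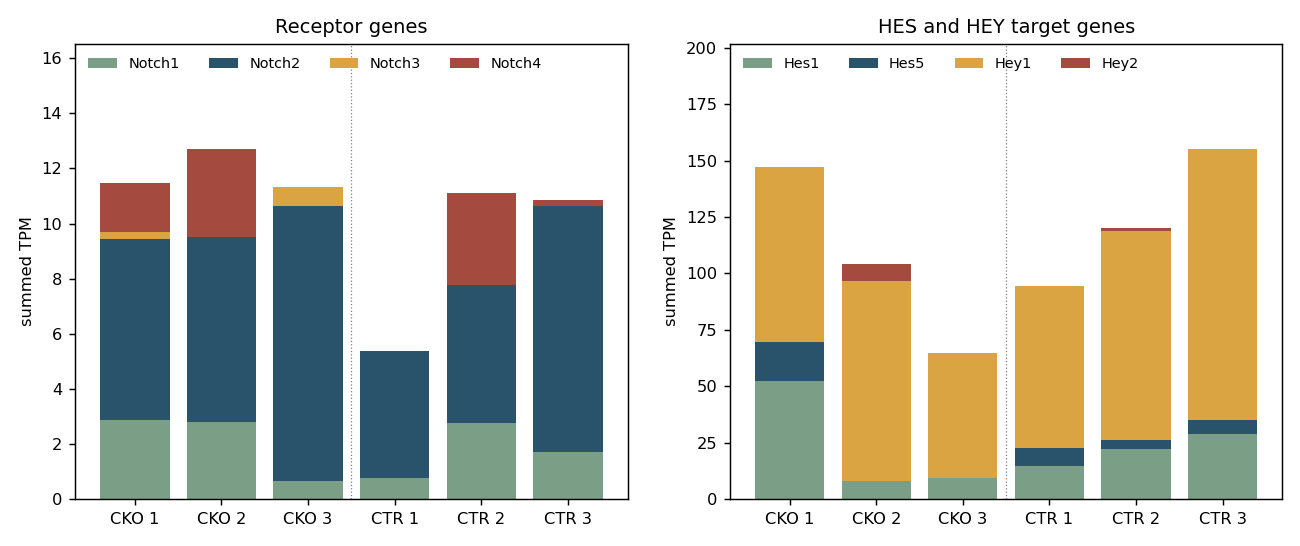
Summed TPM of 4 receptor genes (left panel) and of 4 HES and HEY target genes (right panel) in each library, with the 3 CKO libraries left of the 3 CTR libraries and both axes starting at 0. Notch2 and Hey1 are the largest part of their bars in each library, with Hey1 at 52.9 to 85.5% of the target sum in the CKO and 75.9 to 77.5% in the CTR.

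Hey1 was the highest of the 10 genes in 6 of 6 libraries and the steadiest. Hey1 (chromosome 3, 8663359 to 8667256, minus strand) encodes a repressor and is a direct target of Notch. It stood at 77.9, 88.8 and 55.4 TPM in CKO 1 to 3, against 71.6, 92.7 and 120.3 TPM in CTR 1 to 3. This was the 83.0th to 87.7th percentile of detected genes in the CKO and the 84.7th to 89.1st in the CTR. The lowest value was CKO 3 and the highest CTR 3, and the remaining 4 libraries overlapped. For Hey1 the log2 fold change came to -0.35 ± 0.26 (SE; 95% interval -0.95 to 0.25). Its edgeR p was 0.214 unadjusted and 0.99999 adjusted. Without CTR 1 the log2 fold change was -0.46, and without CTR 3 it was -0.18. The coefficient of variation over the 6 libraries was 28%, beside a median of 26.0% for 593 genes of like mean count.

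Hes1 and Hes5 varied more between CKO libraries than between controls. Hes1 (chromosome 16, 30064384 to 30067796, plus strand), whose protein represses proneural genes, stood at 52.4, 7.76 and 9.33 TPM in CKO 1 to 3, against 14.6, 22.3 and 28.9 TPM in CTR 1 to 3. CKO 1 was above all controls, and CKO 2 and CKO 3 were below all controls. The means were 23.2 ± 25.3 TPM in the CKO and 21.9 ± 7.15 TPM in the CTR (SD, n = 3 each). The log2 fold change was 0.10 ± 0.93 (SE, edgeR adjusted p = 0.99999), and it was -1.34 without CKO 1, -0.071 without CTR 1 and 0.32 without CTR 3. On scales that average the logarithms of single libraries its sign turned, to -0.42 with limma-voom and -0.39 on log2(TPM + 1).

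Hes5 (chromosome 4, 154960923 to 154962371, plus strand), a target gene that marks cells with active Notch in the adult V-SVZ, was likewise highest in CKO 1. It stood at 17.0, 0 and 0 TPM in CKO 1 to 3, against 8.21, 3.90 and 6.02 TPM in CTR 1 to 3. CKO 1 held all of the CKO signal, and each of the 3 controls held some. The counts behind these values were 214, 0 and 0 in the CKO and 123, 46 and 82 in the CTR. Its log2 fold change came to -0.11 ± 2.57 (SE; 95% interval -6.07 to 5.85; edgeR adjusted p = 0.99999), and it was 0.27 without CTR 1 and -0.15 without CTR 3. Without CKO 1 both remaining CKO libraries were at 0, and DESeq2 then called Hes5 lower, whereas edgeR did not. That DESeq2 fit called 2.69% of 17855 genes, 392 lower and 88 higher. The call depends on which library was left out and is no support for a difference. Among 1093 genes of like mean count, 66.9% had 2 or more libraries at 3 counts or fewer. CKO 1, with the most Hes1 and Hes5, had the lowest summed level of the 10 astrocyte and neural stem cell markers among the CKO libraries, at 1556 TPM beside 1744 and 2082 TPM in CKO 2 and CKO 3. The controls had 1567, 1845 and 2819 TPM. Aldoc led this sum, at 758, 812 and 977 TPM in CKO 1 to 3. Single markers differed. In CKO 1 to 3 Gfap stood at 104, 177 and 191 TPM and was lowest in CKO 1, while Thbs4 stood at 5.62, 0.14 and 0 TPM and was highest there. The part of such cells in the Hes1 and Hes5 values was not tested.

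Hey2 (chromosome 10, 30832359 to 30842801, minus strand), the other HEY gene of the set, came almost wholly from 2 libraries. It had 0, 209 and 1 counts in CKO 1 to 3, against 0, 34 and 0 counts in CTR 1 to 3. The libraries with signal were the replicate 2 of each group, at 7.78 TPM in the CKO and 1.26 TPM in the CTR. Hey2 was not tested after the filter, and without a filter its edgeR p was 0.448 unadjusted. Hes5 and Hey2, the members whose promoters are printed, were each at 0 counts in some libraries and were shown for that reason. No promoter was found for Hes1 and Hey1, so RBPJ matches cannot be compared with levels among the targets. Hey1 had 1509 to 2252 counts in the CKO and 2308 to 3525 counts in the CTR.

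**Figure D3:**
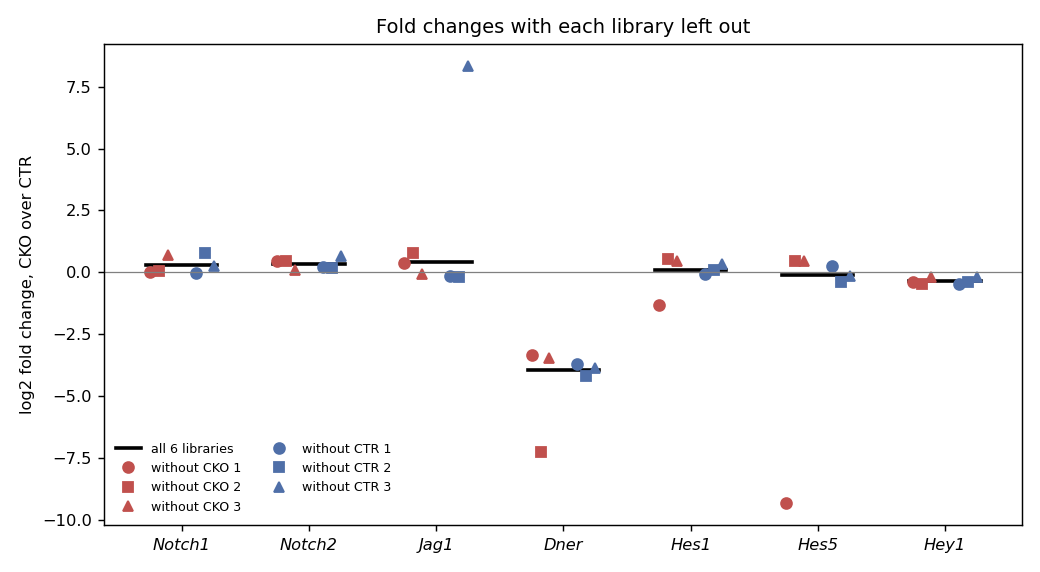
Fitted log2 fold change of the CKO over the CTR for the 7 tested Notch genes with all 6 libraries (black lines) and with each library left out (red symbols without a CKO library, blue symbols without a CTR library). Dner stays below 0 in all 6 fits, Notch2 above and Hey1 below, while Notch1, Jag1, Hes1 and Hes5 cross 0, and the values of 8.34 for Jag1 and -9.32 for Hes5 come from groups left with no counts and are no measure of size.

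By mean TPM over the 6 libraries the order of the 10 genes was Hey1, Hes1, Notch2, Dner, Hes5, Notch1, Hey2, Jag1, Dll1 and Notch3. Hey1 was apart from its neighbour, since its lowest library, at 55.4 TPM, was above the highest for Hes1, at 52.4 TPM. The ranges of every other pair of neighbours overlapped. Hes1 was above Notch2 in 5 of 6 libraries. Notch2 was above Dner in 3 of 6, which are the 3 CKO libraries. The coefficient of variation was below the median of genes of like mean count for 6 members and above it for 4. It was 49.6% for Notch1 (median of like genes 75.4%) and 72.5% for Hes1 (61.1%). For Dner it was 108%, beside a median of 66.5% for like genes.

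**Figure D4:**
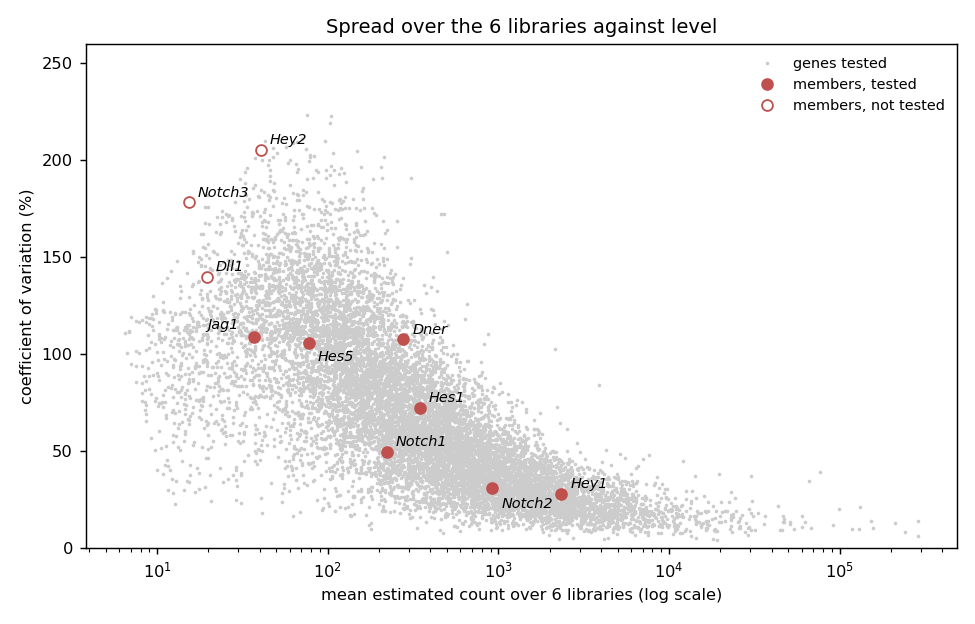
Coefficient of variation over the 6 libraries, both genotypes together, against the mean estimated count (log scale) for all 11574 genes tested (grey) and the 10 Notch genes (red, open where not tested). The members lie within the cloud, with Hey1 at 28% and Hey2 at 205%.

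Beyond the 10 genes, the pathway was described from a list of its other components. Among the 50 tested, the CKO lay wholly below the CTR for 1 gene, Adam17 (4.62% of all genes tested). It lay wholly above for 1 gene, Dtx3 (4.99%). The list held 70 further pathway genes, of which 50 were tested, 26 with a positive and 24 with a negative log2 fold change (median 0.041, beside 0.0044 over all genes tested). edgeR called 0 of the 50, and at an unadjusted p of 0.05 it counted 1, Adam17, in the negative direction (1.31% of all genes). DESeq2 called 1 of the list, Adam17 again, where it called 0.725% of all genes as lower. Adam17 encodes a sheddase that can cut Notch and also frees EGF family ligands. It stood at 2.38, 3.96 and 3.14 TPM in CKO 1 to 3, against 10.6, 6.72 and 12.02 TPM in CTR 1 to 3. Each control was above each CKO library. Adam17 had a log2 fold change of -1.64 ± 0.70 (SE). Its edgeR p was 0.0471 unadjusted and 0.99999 adjusted, and the DESeq2 adjusted p was 0.0347. In DESeq2 fits without 1 library Adam17 was called in 1 of 6, the fit without CTR 2. Adam10, the main sheddase of Notch, stood at 8.69 ± 2.44 TPM in the CKO and 8.03 ± 1.37 TPM in the CTR (SD, n = 3 each).

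Of the 9 genes of the ADAM and gamma-secretase group, 8 were tested, 3 positive and 5 negative. Psenen, which encodes the smallest gamma-secretase subunit, stood at 436 ± 71.2 TPM in the CKO and 457 ± 78.2 TPM in the CTR. Of the 6 genes of receptor glycosylation and furin cleavage, 5 were tested, 3 positive and 2 negative. Poglut1, whose enzyme adds glucose to EGF repeats, stood at 32.1 ± 7.77 TPM in the CKO and 22.5 ± 7.24 TPM in the CTR. Rfng, a Fringe glycosyltransferase gene, stood at 22.5 ± 11.8 TPM in the CKO and 10.1 ± 8.92 TPM in the CTR, with CTR 1 at 0. Of the 6 genes of ligand ubiquitination and endocytosis, 3 were tested, 2 positive and 1 negative. Mib1, whose ligase is needed for ligand activity, stood at 3.59 ± 1.72 TPM in the CKO and 3.35 ± 2.96 TPM in the CTR. Mib2 stood at 6.62 ± 1.39 TPM in the CKO and 6.04 ± 4.37 TPM in the CTR, and the epsin gene Epn2 at 2.70 ± 0.42 TPM in the CKO and 3.32 ± 2.83 TPM in the CTR.

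Of the 10 receptor turnover genes, 9 were tested, 6 positive and 3 negative. Dtx3, a Deltex ubiquitin ligase gene, stood at 19.1, 27.0 and 18.9 TPM in CKO 1 to 3, against 10.7, 19.7 and 11.96 TPM in CTR 1 to 3. In CPM, the scale of the counts tested, the CKO libraries were all above the controls, as for 4.99% of all genes, and in TPM CTR 2 was above CKO 1 and CKO 3. Its log2 fold change was 0.62 ± 0.63 (SE, edgeR adjusted p = 0.99999). Dtx2 stood at 9.8 ± 6.0 TPM in the CKO and 9.52 ± 3.99 TPM in the CTR, and Dtx4 at 5.81, 5.36 and 2.16 TPM in CKO 1 to 3, against 0.0121, 0.0770 and 2.97 TPM in CTR 1 to 3. Of the 8 genes of the nuclear complex, 6 were tested, 3 positive and 3 negative. Rbpj itself stood at 2.34, 2.65 and 3.35 TPM in CKO 1 to 3, against 0.0402, 8.68 and 3.80 TPM in CTR 1 to 3. It was lowest in CTR 1, at 3 counts, which is the floor. The Mastermind gene Maml2 stood at 17.2 ± 10.1 TPM in the CKO and 12.2 ± 4.52 TPM in the CTR, and Snw1, a coactivator that is also a splicing factor, at 104 ± 13.1 TPM in the CKO and 74.2 ± 13.8 TPM in the CTR (log2 fold change 0.48 ± 0.26 SE, edgeR adjusted p = 0.99999).

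Of the 15 corepressor genes, 14 were tested, 5 positive and 9 negative. Hdac1, a histone deacetylase gene, stood at 79.4 ± 23.5 TPM in the CKO and 73.8 ± 28.9 TPM in the CTR, and Hdac2 at 60.4 ± 26.2 TPM in the CKO and 69.8 ± 23.5 TPM in the CTR. Spen, which encodes an RBPJ-binding corepressor, stood at 0.0925 ± 0.0510 TPM in the CKO and 0.46 ± 0.42 TPM in the CTR. Among the target genes outside the 10, Heyl was at 0 counts in all 6 libraries, and Nrarp, an inhibitor that Notch induces, had 59 counts in CKO 3 and 0 in the 5 others. Hes7 had 6, 16 and 0 counts in CKO 1 to 3, against 0, 40 and 0 counts in CTR 1 to 3. Bhlhe41, a related repressor gene of the circadian clock, was steady at 38.2 ± 5.25 TPM in the CKO and 41.1 ± 12.8 TPM in the CTR. Hes6, whose product antagonises HES1, stood at 27.0 ± 23.2 TPM in the CKO and 23.4 ± 9.74 TPM in the CTR, with CKO 2 the highest library at 53.8 TPM.

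**Figure D5:**
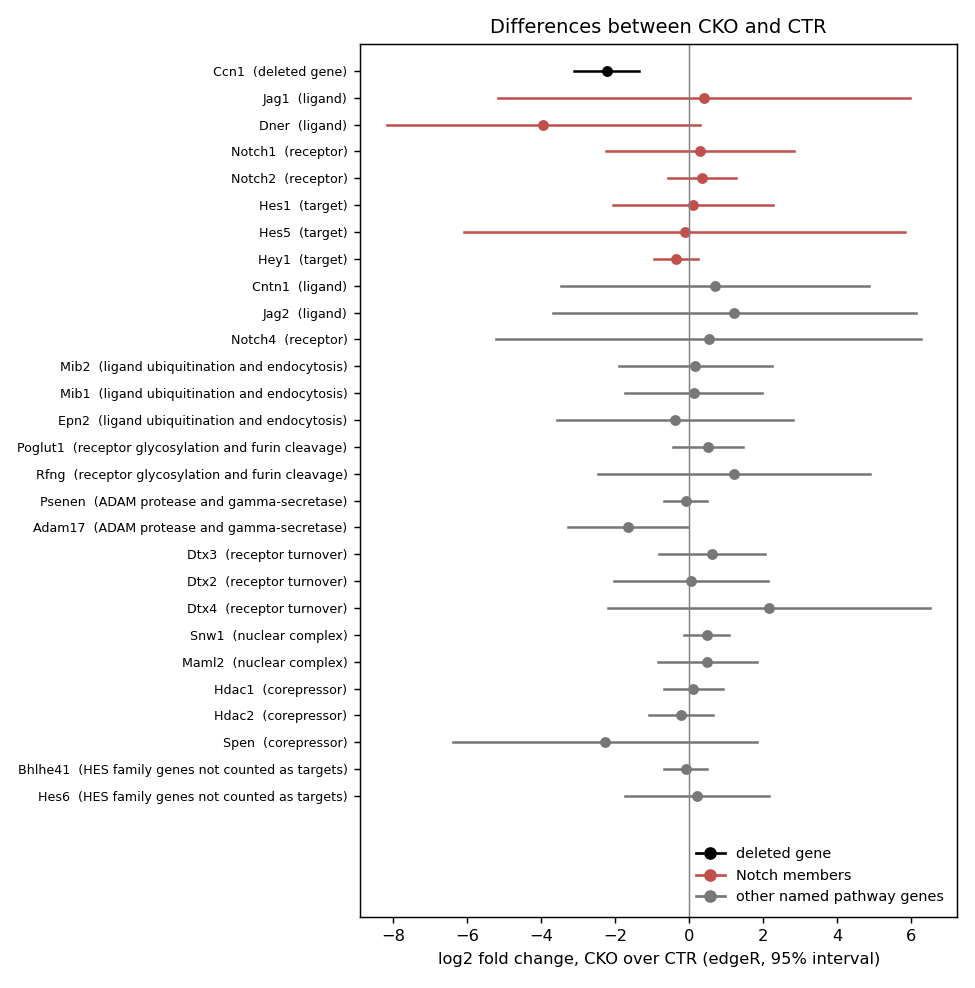
Log2 fold change of the CKO over the CTR with its 95% interval from the edgeR fit for Ccn1 (black), the 7 tested Notch genes (red) and the other named pathway genes that were tested (grey). The intervals of Ccn1 and Adam17 lie below 0, that of Dner reaches 0.29, and the others hold 0.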

How the data were processed

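Each of the 6 deposited files lists estimated counts and TPM per gene for 1 library, as the authors made them. Per the submitters' processing notes, CASAVA 1.8, cutadapt 1.11 and kallisto 0.42.5 were used, with no build or annotation named. The deposited TPM values sum to 1000000 in each library. Of the gene IDs, 99.1% matched GENCODE M21 (GRCm38) without their version number, and coordinates come from there. Ccn1 and Tle5 were found under older symbols.

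The estimated counts were rounded to whole numbers and tested with edgeR 4.0.16 (R 4.3.3): filterByExpr, TMM scaling and the robust quasi-likelihood test, with Benjamini-Hochberg adjustment over all 11574 genes tested and a threshold of 0.05. The SE and 95% interval of an edgeR log2 fold change were computed back from its F statistic and are approximate. Genes of like mean count lay within 0.8 to 1.25 times a member's mean. Levels between genes were compared as TPM. Single genes also had an exact two-sided permutation test over CPM. DESeq2 1.42.0, limma 3.58.1, other scalings and filters, log2(TPM + 1) and log2(TPM + 0.1), a replicate block and each library left out were the alternatives, and DESeq2 with each library left out was added after seeing the data. The tests were also run on simulated counts, where the check was only that edgeR fold changes followed those put in. How often a real change is called is not given here.

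The members and the pathway and marker lists were chosen with earlier results of these data known. Named were Ccn1, the 10 members and, per role in the pathway list, the 2 other genes with the highest mean TPM and the 1 with the smallest edgeR p. A gene chosen by this rule is not reported here. Adam10, Rbpj and genes that were not tested were named in addition, some after their values were seen. The motif search was extended from the target genes to all members with a promoter in the table. The floors cover counting error only.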

Additional observations from a re-analysis of the deposited data

How the results depend on the processing

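With all 6 libraries, 11 other settings were compared with edgeR. The count of members called was 0 in each of them, and that of all genes was 0 except with DESeq2, which called 198 (110 higher and 88 lower in the CKO) and 1 gene of the pathway list, Adam17. In DESeq2 fits without 1 library, added after seeing the data, the count for all genes was 480 without CKO 1, 570 without CKO 2, 475 without CKO 3, 711 without CTR 1, 919 without CTR 2 and 626 without CTR 3. It ranged from 0 to 1 for the members (Hes5 without CKO 1, Dner without CKO 2) and from 1 to 4 for the list. In both cases the library left out was the CKO library with the most counts of that gene. With edgeR without 1 library it was 0 for all 3. Ccn1 stood between -2.27 and -2.21 (log2) in the 11 settings and between -2.50 and -1.97 without 1 library. Of 447 gene values compared, 48 in 14 of 27 genes changed sign, and the cause was not tested. With limma-voom these were Hes1 (-0.42), Epn2 (0.11), Dtx2 (-0.066) and Hes6 (-0.022). On log2(TPM + 1), filtered or not, they were Hes1 (-0.39), Dtx2 (-0.053) and Hes6 (-0.019), and on log2(TPM + 0.1) Hes1 (-0.43), Epn2 (0.082), Dtx2 (-0.071) and Hes6 (-0.026). With the replicate block they were Hes1 (-0.53), Epn2 (0.11), Dtx2 (-0.057) and Hes6 (-0.022), with 0 calls among all genes and Ccn1 at -2.27. Samples of the same replicate number did not clearly deviate together (r of 0.0080 to 0.031, against -0.025 to 0.0070 for other pairs), so the numbers were not taken as pairs, although each sample correlated best with its own number. Without 1 library, the values ranged from -0.18 to 8.34 for Jag1, -0.034 to 0.76 for Notch1, -1.34 to 0.53 for Hes1, -9.32 to 0.47 for Hes5, -0.33 to 4.0 for Notch4, -0.14 to 0.88 for Mib2, -0.25 to 1.10 for Mib1, -0.83 to 0.70 for Epn2, -0.22 to 0.13 for Psenen, -0.55 to 0.44 for Dtx2, -0.12 to 0.34 for Hdac1, -0.59 to 0.046 for Hdac2, -0.24 to 0.13 for Bhlhe41 and -0.73 to 0.54 for Hes6. Fits with a group at 0 counts give values that depend on the prior count. The common dispersion was 1.28, and the members with fewest counts, Notch3, Dll1, Jag1 and Hey2, had libraries at or under the floor of 3 counts.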
